A study of Mus musculus with 12 samples.

Results

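Liver expression of 9 genes of methionine, homocysteine and taurine metabolism was compared across 3 diets. The genes were chosen by name, as the rows of the gene count table whose Ensembl ID maps to Mat1a, Gnmt, Ahcy, Bhmt, Bhmt2, Cbs, Cth, Cdo1 or Csad. All 9 were found among the 49398 genes of that table, and all 9 were among the 13814 genes with enough reads to be tested. The libraries were made from poly(A) RNA of whole liver with a stranded kit. Wild-type C57BL/6J mice of both sexes started the diets at 9 months of age, ate AIN-93G chow for 8 weeks and were fasted for 5 hours before the liver was taken. The chow carried no added oil in the control group, or 1% or 5% (w/w) of an oil concentrate of very-long-chain polyunsaturated fatty acids (VLCPUFA), whose chains are longer than those of most dietary fats. Each diet is represented by 4 mice, 2 females and 2 males, whose numbers name the libraries: N979, N980 (female), N967 and N968 (male) on the control diet, N983, N984 (female), N971 and N972 (male) at 1%, and N987, N988 (female), N975 and N976 (male) at 5%. In whole tissue, fewer cells of a type and less RNA per cell cannot be told apart.

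The liver is the main site of methionine breakdown. Methionine is activated to S-adenosylmethionine, the methyl donor of most methyltransferases, and the S-adenosylhomocysteine left after methyl transfer is hydrolysed to homocysteine. Homocysteine is either methylated back to methionine, with betaine or a folate as the donor, or joined to serine and turned into cysteine by transsulfuration, and cysteine can be oxidised and decarboxylated on the way to taurine, which is attached to bile acids.

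At 5% oil, Csad rose and Bhmt fell against control, while the other 7 genes did not pass the test. Csad encodes cysteine sulfinic acid decarboxylase, which makes the precursor of taurine, and its fitted level was 5.64 times that of the controls. Bhmt encodes the betaine-dependent enzyme that methylates homocysteine, and its fitted level was 0.379 of control. These 2 of 9 genes compare with 2.46% of all genes tested that were called at an adjusted p under 0.05 (edgeR's quasi-likelihood test with Benjamini-Hochberg adjustment), 1.19% higher and 1.27% lower. The 9 genes and the lists below were chosen with earlier results of these data known. This comparison and those like it below are therefore descriptions, and do not test whether such genes respond more than others. At 1% oil none of the 9 was called.

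Depth ran from 5291385 to 15674130 estimated reads per library. Hepatocyte markers were abundant in every library, and the summed level of Alb, Apoa1, Ttr, Fgb and Hnf4a was 82930 to 101400 CPM (counts scaled to library size) at 5%, against 94170 to 166500 CPM in controls. None of the 5 markers of Kupffer cells, 4 of sinusoidal endothelium, 4 of stellate cells and 4 of cholangiocytes was called by edgeR at 5% against control. At an unadjusted p under 0.05 were 2 endothelial markers and 1 stellate marker, and DESeq2 called 1 stellate marker. Of 4 markers of periportal hepatocytes edgeR called 1, Ass1, at 938 to 1687 CPM at 5%, against 2444 to 4129 CPM in controls; 2 had an unadjusted p under 0.05 and DESeq2 called 2. The summed level of the 4, most of it Ass1, was 1428 to 2333 CPM at 5%, against 3250 to 4824 CPM in controls, with no overlap. Sds was apart as well, while Cyp2f2 (257 to 482 CPM at 5%, against 163 to 674 CPM in controls) and Hal overlapped. Of 4 pericentral markers edgeR called 0, with 2 at an unadjusted p under 0.05 and 1 called by DESeq2. Their sum was 6633 to 10970 CPM at 5%, against 6272 to 7689 CPM in controls. Most of it was Cyp2e1, at 5614 to 9591 CPM at 5%, against 4701 to 5714 CPM in controls. Oat was lower without overlap, at 215.7 to 562.9 CPM at 5%, against 604.5 to 1020 CPM in controls. Glul and Slc1a2 overlapped. Of 5 circadian clock genes 4 were called. The share of reads in transcripts that retain an intron was 4.88% to 5.22% in 4 female libraries (N988, N983, N984 and N979) and 2.04% to 3.41% in the other 8.

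**Figure D1:**
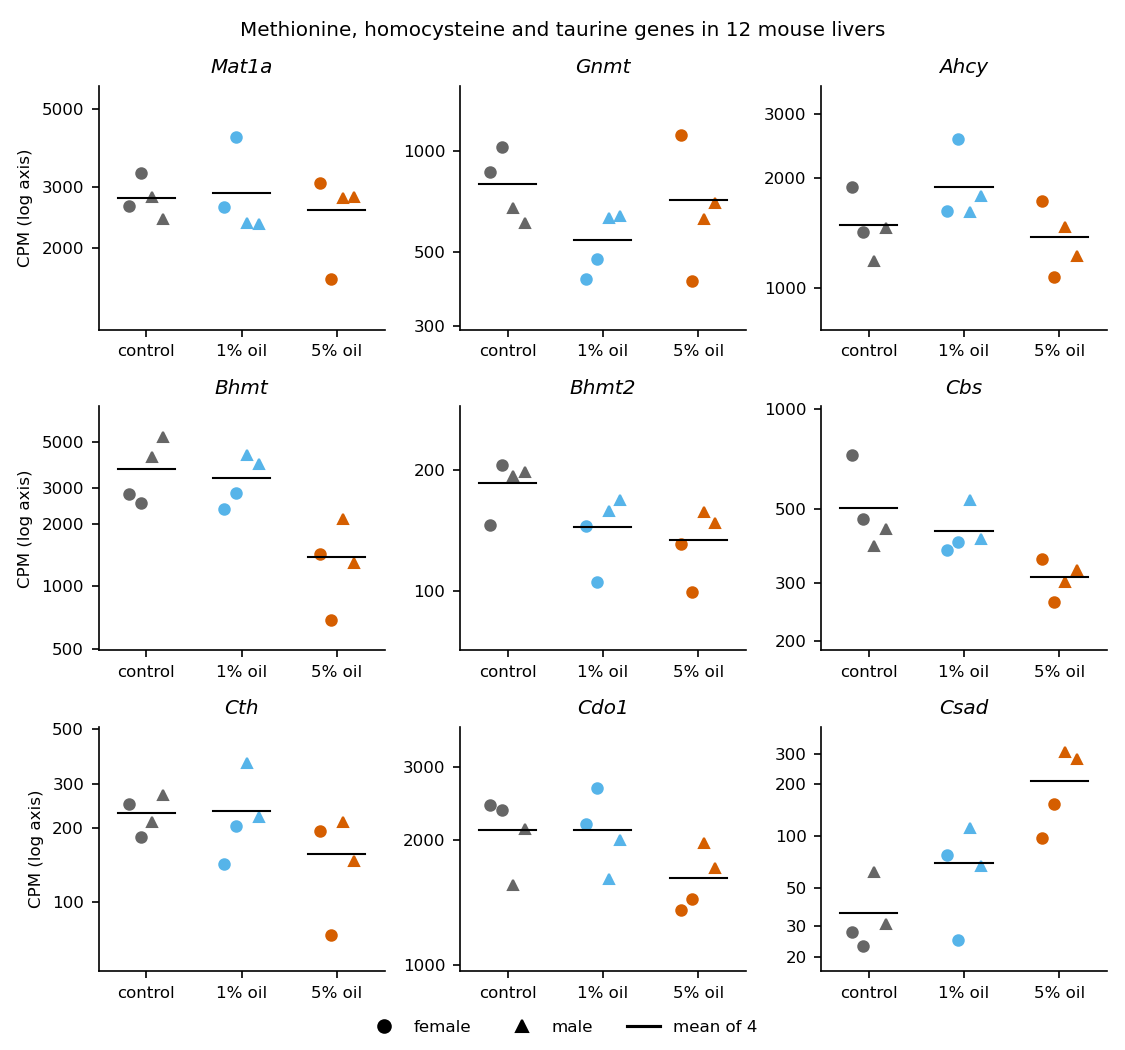
Level of each of the 9 genes in the 12 livers, as CPM on a log axis. Circles are females, triangles are males and the line is the mean of the 4 animals of a diet; at 5% oil all 4 points of Csad lie above the controls, and all 4 of Bhmt and of Cbs lie below them.

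The methionine cycle is opened by Mat1a, the liver form of methionine adenosyltransferase. Its level was 2648, 3271, 2807 and 2431 CPM in controls (females before males, here and below), 2619, 4147, 2368 and 2351 CPM at 1%, and 3074, 1637, 2781 and 2803 CPM at 5%. The groups overlapped, with the highest and the lowest values in single females, N984 and N988. The log2 fold change at 5% against control was -0.10 ± 0.23 (standard error; edgeR adjusted p = 0.903).

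Gnmt uses S-adenosylmethionine to methylate glycine and so consumes surplus methyl groups. It had 868, 1029, 676 and 613 CPM in controls, 415, 477, 634 and 641 CPM at 1%, and 1119, 410, 629 and 700 CPM at 5%. The 2 females at 5% held the highest and the lowest of all 12 values, and the groups overlapped. Its log2 fold change was -0.15 ± 0.28 at 5% (edgeR adjusted p = 0.875) and -0.54 ± 0.28 at 1% (edgeR adjusted p = 0.492).

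Ahcy, the hydrolase that releases homocysteine, had 1896, 1431, 1184 and 1464 CPM in controls, 1629, 2558, 1622 and 1786 CPM at 1%, and 1738, 1077, 1475 and 1225 CPM at 5%. Its values overlapped between the diets, and the log2 fold change of -0.11 ± 0.20 at 5% against control was not past the threshold (edgeR adjusted p = 0.882). For 5% against 1% it was -0.45 ± 0.20 (edgeR adjusted p = 0.252). For Mat1a, Gnmt and Ahcy the small difference at 5% took the other sign without female N988, at 0.10, 0.07 and 0.04 on the log2 scale. Of the 31-base words of the main Ahcy transcript, 79.4% occur in other genes, mostly in the predicted gene Gm4737, which was given 0.041% as many reads as Ahcy.

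The gene that fell acts in remethylation. Bhmt had 2781, 2521, 4219 and 5279 CPM in controls, 2378, 2827, 4314 and 3882 CPM at 1%, and 1431, 687, 2127 and 1299 CPM at 5%. All 4 livers at 5% were below all controls and below all livers at 1%, and within each diet both females were below the higher male. The mean was 1386 ± 590 CPM at 5% and 3700 ± 1291 CPM in controls (SD, n = 4 each). The log2 fold change was -1.40 ± 0.23 against control (edgeR adjusted p = 0.00618) and -1.28 ± 0.22 against 1% (edgeR adjusted p = 0.0238), while 1% against control gave -0.12 ± 0.22 (edgeR adjusted p = 0.874). The 3 comparisons share groups and so are not independent of each other. Against control the call held without any single library, with adjusted p from 0.00293 to 0.0273. Against 1% it was lost without N976, N983, N984, N971 or N972, with adjusted p up to 0.089.

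Bhmt2 encodes a related methyltransferase that takes its methyl group from S-methylmethionine. It had 146, 205, 193 and 198 CPM in controls, 145, 105, 158 and 168 CPM at 1%, and 131, 99.5, 157 and 148 CPM at 5%. The ranges overlapped through 1 control female, N979, and the log2 fold change at 5% was -0.48 ± 0.16 (edgeR adjusted p = 0.155). The main transcripts of both genes share 40 words of 31 bases, of 2460 in Bhmt and 2405 in Bhmt2. The longest shared coding run of the pair is shown because it is where reads could be assigned to the wrong gene. It lies at chr13:93620181-93620239 on the minus strand of GRCm38, read from the Bhmt transcript of GENCODE M21.
Bhmt and Bhmt2 shared run: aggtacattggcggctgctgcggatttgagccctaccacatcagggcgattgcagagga
In all, 68.5% of the Bhmt words occur in other genes, most of them in the predicted gene Gm5096, which was given 0.0243% as many reads as Bhmt.

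Transsulfuration begins with Cbs, cystathionine beta-synthase, which joins homocysteine to serine. Its gene total was 729, 467, 389 and 437 CPM in controls, 377, 399, 532 and 408 CPM at 1%, and 356, 263, 301 and 329 CPM at 5%. All 4 livers at 5% were below all controls and below all livers at 1%, yet the log2 fold change of -0.69 ± 0.20 against control did not pass the threshold (edgeR adjusted p = 0.1). Thus 2 of 9 genes, Bhmt and Cbs, had all 4 livers at 5% below all controls, beside 2.98% of all genes tested, and 1 of 9, Csad, had all 4 above, beside 3.11%. Against 1% the same pair was lower in every liver at 5%, beside 3.55% of all genes, and none of the 9 was higher in every liver, beside 4.1%. For 1% against control none of the 9 was separated in either direction, beside 1.83% of all genes higher and 2.03% lower.

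Cth, cystathionine gamma-lyase, which releases cysteine, had 249, 183, 211 and 270 CPM in controls, 142, 203, 364 and 220 CPM at 1%, and 195, 73.8, 211 and 146 CPM at 5%. The groups overlapped, and the lowest value was again that of N988. The log2 fold change at 5% was -0.56 ± 0.29 (edgeR adjusted p = 0.402). Female N988 was the lowest of all 12 livers for 7 of the 9 genes, Cdo1 and Csad being the exceptions. The share of all genes that were lowest in N988 was not computed, so this may hold for the library at large.

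Reads assigned to short transcripts that are not protein-coding bear on the totals of Cbs, Gnmt and Cth; the one of Cth, Cth-203, is annotated as a processed transcript of 675 bases, and those described here for Cbs and Gnmt as retaining an intron. The transcript Cbs-207 begins inside an intron, with 411 intronic bases among its 1461 bases, and runs on through 5 exons, where the protein-coding Cbs-202 has 16. It took 1.37% to 55.2% of the Cbs reads of a library. Gnmt-202, which keeps 171 intronic bases, took 3.81% to 39.4% of the Gnmt reads. The points where the retained intron meets the next exon are shown for both, since these bases tell such transcripts from the spliced ones; capitals are intron and lower case is exon. They lie at chr17:31617433-31617492 for Cbs and chr17:46726687-46726746 for Gnmt, both on the minus strand of GRCm38, as in GENCODE M21.
Cbs-207: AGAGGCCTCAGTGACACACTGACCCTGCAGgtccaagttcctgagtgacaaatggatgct
Gnmt-202: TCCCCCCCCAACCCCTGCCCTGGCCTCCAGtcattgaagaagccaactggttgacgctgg
Both transcripts cover the 3′ end of their gene, so reads from retained introns and coverage that favours the 3′ end cannot be told apart here.

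The share of Cbs reads in transcripts that are not protein-coding was 63.2%, 14.8%, 7.84% and 25.7% in controls, 61.4%, 57.3%, 32.6% and 27.1% at 1%, and 2.03%, 50.04%, 25.9% and 2.86% at 5%. The high values are those of the 4 female libraries with the most retained-intron reads, which come from all 3 diets. With protein-coding transcripts alone, Cbs had 323, 425, 377 and 356 CPM in controls, 173, 201.35, 409 and 325 CPM at 1%, and 371, 156, 250 and 335 CPM at 5%. The diets then overlapped: the log2 fold change was -0.42 ± 0.28 at 5% against control (edgeR adjusted p = 0.553), and against 1% it was 0.06 ± 0.28, where the gene total gave -0.46 ± 0.20. On the same coding counts, Bhmt (-1.41 ± 0.23, edgeR adjusted p = 0.00895) and Csad (2.5 ± 0.36, edgeR adjusted p = 0.00786) were called at 5% against control.

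**Figure D2:**
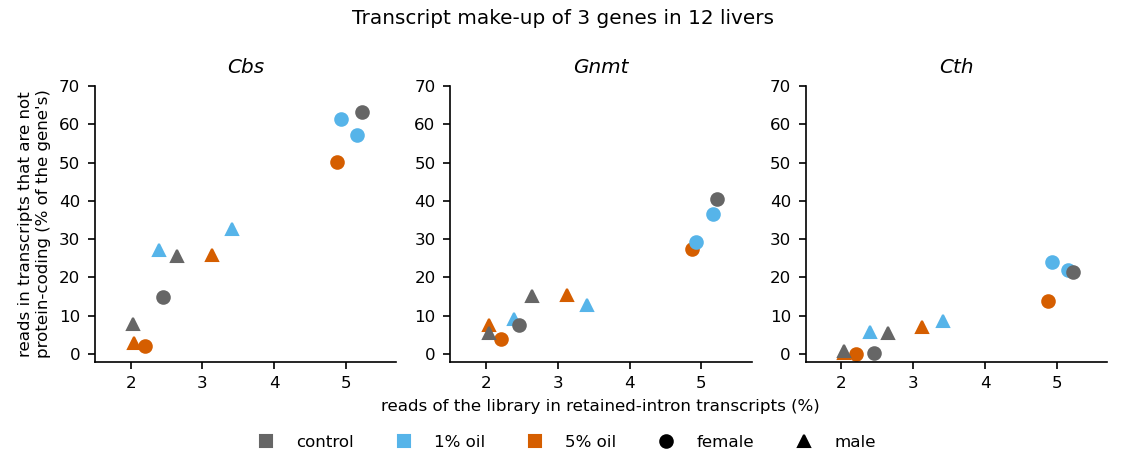
Share of the reads of Cbs, Gnmt and Cth that fall in transcripts not annotated as protein-coding, in percent, against the share of all reads of the library in retained-intron transcripts, in percent, for the 12 livers. The 4 female libraries above 4% on the horizontal axis have the highest shares of Cbs, from 50.04% to 63.2%, and they belong to all 3 diets.

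No transcript's share of its gene passed the test between 5% and control. Of 7 transcripts with a mean share of 10% to 90% none was called, with a smallest two-sided exact permutation p of 0.143, where 4 against 4 animals cannot go below 0.0286. None of the 7 had an unadjusted p under 0.05 in that exact test.

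Taurine synthesis from cysteine begins with Cdo1, cysteine dioxygenase. It had 2432, 2370, 1565 and 2127 CPM in controls, 2184, 2680, 1613 and 2001 CPM at 1%, and 1356, 1444, 1968 and 1716 CPM at 5%. Both females at 5% were the lowest of all 12 livers and both control females were near the top, while the males of the diets overlapped. The log2 fold change at 5% was -0.37 ± 0.20 over both sexes (edgeR adjusted p = 0.427). It was -0.78 ± 0.23 in females and -0.00 ± 0.23 in males, a difference between the sexes of -0.77 ± 0.33 that did not pass (edgeR adjusted p = 0.992).

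Csad, the next enzyme, had 27.7, 23.2, 61.9 and 31.04 CPM in controls, 78.0, 25.1, 112 and 67.0 CPM at 1%, and 98.3, 155, 307 and 279 CPM at 5%. All 4 livers at 5% were above all controls, and 3 of the 4 livers at 1% were as well, N984 being the exception. The mean was 209.8 ± 99.5 CPM at 5% and 36.0 ± 17.6 CPM in controls (SD, n = 4 each). The log2 fold change was 2.49 ± 0.34 against control (edgeR adjusted p = 0.00342), which put Csad at place 30 of all genes by p. Against 1% it was 1.5 ± 0.33 (edgeR adjusted p = 0.0467), and 1% against control gave 0.99 ± 0.33 (edgeR adjusted p = 0.277). Against control the call at 5% held without any single library (adjusted p from 0.00054 to 0.0152). Between the doses it was lost without N987, N988, N976, N984, N971, N972, N980, N967 or N968, with adjusted p up to 0.141. The authors' deposited table of 261 genes, whose contrast is not named there, holds Csad alone of the 9, with a log2 fold change of 1.86 and an adjusted p of 0.0297.

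One transcript, Csad-201, carried 82.3% of the Csad reads on average, from 71.3% to 88.1% of a library's. RefSeq gives Csad 2 starts that lie 16009 bases apart, and Csad-201 begins at the inner one. The 250 bases before the RefSeq start are shown because this is the start to which most Csad reads belong. They lie at chr15:102189044-102189293 on the minus strand of GRCm38.p6, and capitals mark the last 15 bases, which Csad-201 already includes.
Csad upstream window: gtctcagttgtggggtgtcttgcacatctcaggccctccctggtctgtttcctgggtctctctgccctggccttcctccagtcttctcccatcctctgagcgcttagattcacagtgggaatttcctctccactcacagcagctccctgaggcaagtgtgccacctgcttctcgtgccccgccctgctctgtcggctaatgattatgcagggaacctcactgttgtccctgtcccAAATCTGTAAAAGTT
Promoter windows of RefSeq, from 250 bases before to 50 after a start, were found for 6 of the 9 genes, 7 windows in all. Only the 250 bases before the start were searched, on both strands, for 4 motifs, and all other windows were searched alike. In that stretch the E-box CACGTG occurred in 1 of the 7, that of Cbs, at position -229, beside 6.02% of all 32851 windows. The D-box TTATGNAA (3.07% of all windows), the core of the antioxidant response element TGACNNNGC (10.2%) and the DR1 repeat AGGTCANAGGTCA (0.0335%) occurred in none of the 7.

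**Figure D3:**
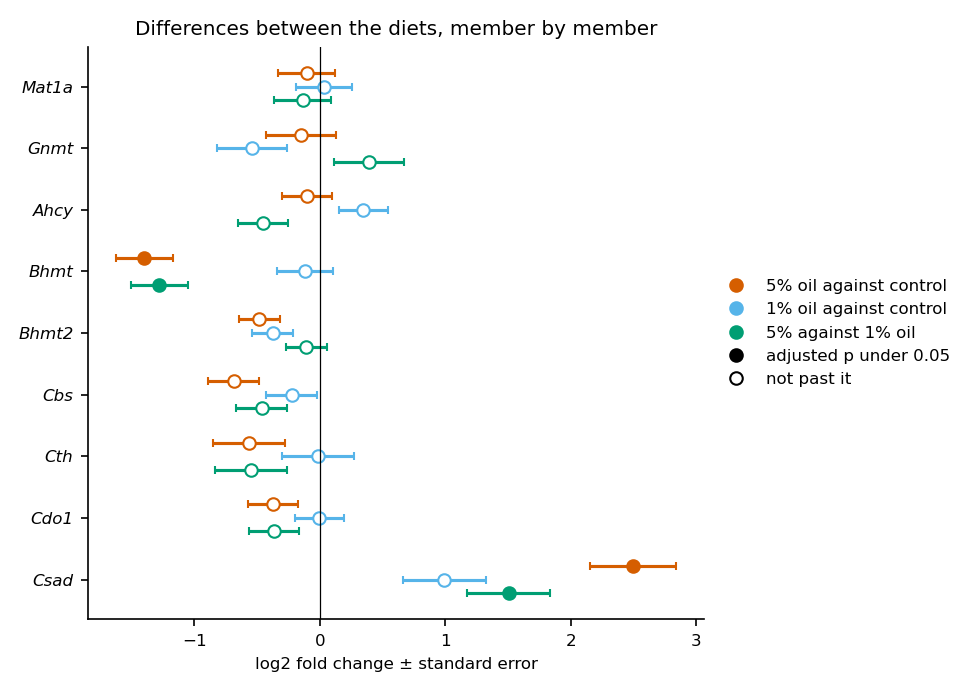
Log2 fold change with its standard error for each of the 9 genes in the 3 comparisons of the diets; filled points have an edgeR adjusted p under 0.05. Filled points are those of Csad (2.49 and 1.5) and Bhmt (-1.40 and -1.28) for 5% oil against control and against 1%.

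Over all 9 genes, 8 of the log2 fold changes at 5% against control were below 0 and the median was -0.37, beside 0.01 for all genes tested. Those of Mat1a, Gnmt and Ahcy were above 0 once female N988 was left out. In females 8 of 9 were below 0 with a median of -0.61, and in males 5 of 9 with a median of -0.0029. Between 5% and 1% the 2 of 9 called compare with 1.33% of all genes, of which 0.861% were higher and 0.471% lower. For 1% against control, edgeR called 0 of 9 beside 0.224% of all genes. At an unadjusted p under 0.05 it called Bhmt2 and Csad, 2 of 9 beside 11.1%, and DESeq2 and limma voom each called 0. Over the 3 doses as a number, the slope per percent of oil was 0.46 ± 0.07 for Csad (edgeR adjusted p = 0.00453) and -0.29 ± 0.04 for Bhmt (edgeR adjusted p = 0.00529), 2 of 9 called beside 2.23%.

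Both genes also differed between the sexes. Csad averaged 25.5 CPM in females and 46.5 CPM in males on the control diet, 51.5 CPM in females and 89.2 CPM in males at 1%, and 127 CPM in females and 293 CPM in males at 5%. Bhmt averaged 2651 CPM in females and 4749 CPM in males on the control diet, 2603 CPM in females and 4098 CPM in males at 1%, and 1059 CPM in females and 1713 CPM in males at 5%. Females were lower at every diet, with log2 fold changes of -0.96 ± 0.27 for Csad (edgeR adjusted p = 0.0445) and -0.73 ± 0.18 for Bhmt (edgeR adjusted p = 0.0255). These 2 of 9 compare with 8.94% of all genes called between the sexes, 5.34% lower in females. The Csad call was lost without any 1 of N987, N988, N975, N976, N984, N971, N979 and N967 (adjusted p up to 0.119), and the Bhmt call without N975, N983, N972 or N968 (up to 0.0627). Without the 4 female libraries of high retained-intron share neither was called, at -1.26 ± 0.32 for Csad (edgeR adjusted p = 0.136) and -0.55 ± 0.25 for Bhmt (edgeR adjusted p = 0.415).

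The response to 5% oil had the same direction in both sexes for Csad, at 2.32 ± 0.52 in females and 2.66 ± 0.52 in males, and for Bhmt, at -1.32 ± 0.34 in females and -1.47 ± 0.34 in males. With 2 animals a group, none of the 9 passed in edgeR within a sex, where it called 1.85% of all genes in females and 0.181% in males. At an unadjusted p under 0.05 were 5 of the 9 in females and 2 in males. The share of all genes at that threshold within a sex is not given here, so these counts have no background to be read against. No gene, 0% of those tested, was called by edgeR for a difference between the sexes in that response. At an unadjusted p under 0.05 it called 4.67% of genes, Cdo1 alone of the 9, while DESeq2 called 43 genes, none of them among the 9, and limma voom 0.

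Of the 5 clock genes, edgeR called 4 at 5% against control, 0 at 1% against control and 0 between 5% and 1%. In the last 2 comparisons 4 and 3 had an unadjusted p under 0.05. A score of clock phase, the mean standardised log2 level of Dbp, Per3 and Nr1d1 minus that of Arntl and Npas2, ran from -3.01 to -1.36 in controls, from -1.12 to 1.33 at 1% and from 0.577 to 2.502 at 5%. With the score added as a covariate after the data had been seen, the log2 fold change of Csad at 5% against control was 4.07 ± 0.56 (edgeR adjusted p = 0.0727). That of Bhmt was -1.40 ± 0.54 (edgeR adjusted p = 0.546). Neither was called, and in that fit edgeR called 0 of all genes at 5% against control, where the main fit called 340. The scores of the 5% and control livers did not overlap, so the score and the diet cannot be told apart. The part of the periportal markers in these results was not tested.

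**Figure D4:**
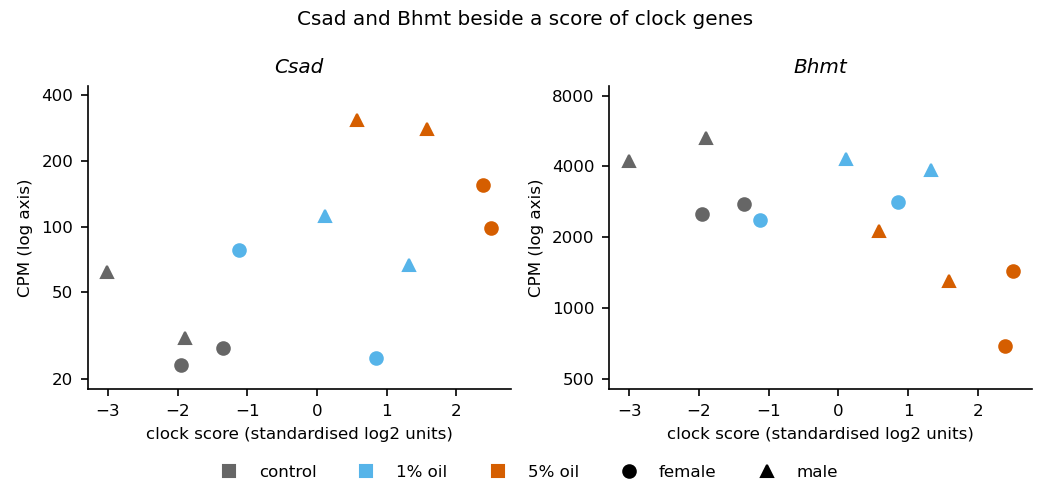
CPM of Csad and Bhmt on log axes against the clock score, in standardised log2 units, for the 12 livers. The 4 livers at 5% oil have scores from 0.577 to 2.502 and the controls from -3.01 to -1.36, so no score is shared by the 2 groups.

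Levels were compared between genes as TPM, in which reads are divided by transcript length before libraries are scaled. In controls the order was Bhmt at 1967 ± 675 TPM, Cdo1 at 1788 ± 260, Mat1a at 1165 ± 219, Gnmt at 1064 ± 261, Ahcy at 778 ± 119, Cbs at 333 ± 128, Cth at 187 ± 41.7, Bhmt2 at 100.3 ± 19.0 and Csad at 31.3 ± 16.2 TPM (mean ± SD, n = 4). The ranges of Bhmt and Cdo1 overlapped, as did those of Mat1a and Gnmt and of Gnmt and Ahcy, and the other neighbours in this order were apart. At 5% Bhmt stood at place 4 with 838 ± 325 TPM, and Csad at place 7 with 193 ± 84.1 TPM, above Cth and Bhmt2. In that order only Ahcy and Cbs were apart among neighbours. At 1% Csad was still at place 9, with 59.6 ± 33.0 TPM.

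Other genes of the same pathways were read from a list of 42, of which 41 were tested, Gadl1 having too few reads. At 5% against control edgeR called 2 of 41 higher, beside 1.19% of all genes, and 2 lower, beside 1.27%. Of the 41, 16 had an unadjusted p under 0.05 and DESeq2 called 8. For this comparison no share of all genes is given for edgeR's main fit at that unadjusted threshold, or for DESeq2. Such counts, here, by role below and for the cell markers above, therefore have no background to be read against. The median of the 41 was -0.05, beside 0.01 for all genes. Among 10 enzymes of the methionine cycle and of methyl transfer, 4 had an unadjusted p under 0.05, DESeq2 called 2 and edgeR called 1, which fell. This was Nnmt, which methylates nicotinamide, with 216, 98.4, 53.3 and 99.6 CPM in controls, 101, 222, 142 and 75.8 CPM at 1%, and 48.8, 19.4, 28.8 and 24.9 CPM at 5%. All 4 livers at 5% were below the rest, and the log2 fold change was -1.87 ± 0.39 (edgeR adjusted p = 0.0311). Mat2a, the methionine adenosyltransferase found mainly outside the adult liver, gave a log2 difference of 0.66 ± 0.19 for 5% against control, short of the threshold (edgeR adjusted p = 0.0839).

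Of 5 genes of choline, betaine and sarcosine metabolism, edgeR called 1 at 5% against control, which rose. At an unadjusted p under 0.05 were 4 of the 5, and DESeq2 called 2. The median of the 5 was -0.34. Dmgdh (-0.52 ± 0.17, edgeR adjusted p = 0.134) and Sardh (-0.48 ± 0.18, edgeR adjusted p = 0.213) were lower without a call. Chdh, which oxidises choline on the way to betaine, the methyl donor of Bhmt, had 95.4, 119.8, 149 and 123 CPM in controls, 117, 147, 170 and 142 CPM at 1%, and 199, 205, 184 and 189 CPM at 5%. Every liver at 5% was above every other liver, and the log2 fold change was 0.69 ± 0.16 (edgeR adjusted p = 0.0366). None of the 5 folate genes was called by edgeR at 5% against control, 2 had an unadjusted p under 0.05, and DESeq2 called 1. The smallest p were those of Aldh1l1 (-0.54 ± 0.17, edgeR adjusted p = 0.121) and Ftcd (-0.52 ± 0.20, edgeR adjusted p = 0.227).

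Of 9 genes of cysteine use and sulfide oxidation, 4 had an unadjusted p under 0.05 at 5% against control and DESeq2 called 2. The 1 called by edgeR fell. Got1, the cytosolic aspartate aminotransferase, had 420, 546, 233 and 360 CPM in controls, 351, 865, 471 and 261 CPM at 1%, and 115, 71.1, 161 and 136 CPM at 5%, again with no overlap. Its log2 fold change was -1.63 ± 0.38 (edgeR adjusted p = 0.0465). Gclm, the regulatory subunit of the first enzyme of glutathione synthesis, was called only between the doses, at 0.75 ± 0.16 for 5% against 1% (edgeR adjusted p = 0.0424), and gave 0.62 ± 0.16 against control (edgeR adjusted p = 0.0593). None of the 4 tested taurine genes was called by edgeR at 5% against control, or had an unadjusted p under 0.05, or was called by DESeq2 or limma voom, with Fmo1 at 0.33 ± 0.18 (edgeR adjusted p = 0.450) and the taurine transporter Slc6a6 at 0.32 ± 0.28 (edgeR adjusted p = 0.670).

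Of 8 genes of polyamine synthesis and methionine salvage, 2 had an unadjusted p under 0.05 at 5% against control and DESeq2 called 1. The 1 called by edgeR rose. Amd1, which decarboxylates S-adenosylmethionine for polyamine synthesis, had 22.8, 28.8, 35.4 and 38.4 CPM in controls, 32.9, 29.5, 29.7 and 37.7 CPM at 1%, and 61.4, 39.4, 59.6 and 76.5 CPM at 5%. All 4 livers at 5% were above the rest, narrowly so in N988. The log2 fold change was 0.92 ± 0.18 (edgeR adjusted p = 0.0158), and reads of near-identical copies of this gene may be shared, which makes its level uncertain.

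Between 5% and 1%, Nnmt (-2.12 ± 0.40, edgeR adjusted p = 0.0350), Got1 (-1.95 ± 0.39, 0.0390) and Amd1 (0.85 ± 0.18, 0.0406) were called too. With Gclm these were 2 of 41 higher, beside 0.861% of all genes, and 2 lower, beside 0.471%. For 1% against control edgeR called 0 of the 41, beside 0.224% of all genes. Of the 41, 4 had an unadjusted p under 0.05, beside 11.1%. DESeq2 called 1 of the 41 and limma voom 0, where over all genes they called 277 and 48. Each edgeR call of these other genes, at 5% against control or between the doses, was lost when some single libraries were left out. Against control, Nnmt was lost without N987, N988, N976, N979, N980 or N968 (adjusted p up to 0.102), Chdh without N987, N988, N976, N984, N972, N979, N980 or N968 (up to 0.123), Got1 without N987, N988, N976, N983, N971, N979, N980 or N968 (up to 0.160), and Amd1 without N987 or N976 (up to 0.078). Between the doses, Nnmt was lost without N987, N988, N976, N984, N971, N972 or N968 (up to 0.12), Got1 without N987, N988, N976, N983, N984, N971 or N968 (up to 0.152), and Amd1 without N987, N976, N983, N984, N971, N972, N967 or N968 (up to 0.149). Gclm was lost without any library but N975 and N979 (up to 0.158). All 8 calls were also lost without the sex term (adjusted p 0.0617 to 0.271) and with the clock score (0.161 to 0.73). Without the 4 libraries of high retained-intron share 7 were lost, all but that of Amd1 against control (0.0664 to 0.252), and with that share as a covariate 6 were lost, all but those of Chdh and Amd1 against control (0.058 to 0.121). On coding transcripts alone 3 were lost, Got1 against control and Gclm and Amd1 between the doses (0.0531 to 0.0589), and with upper quartile factors Gclm alone (0.0574).

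**Figure D5:**
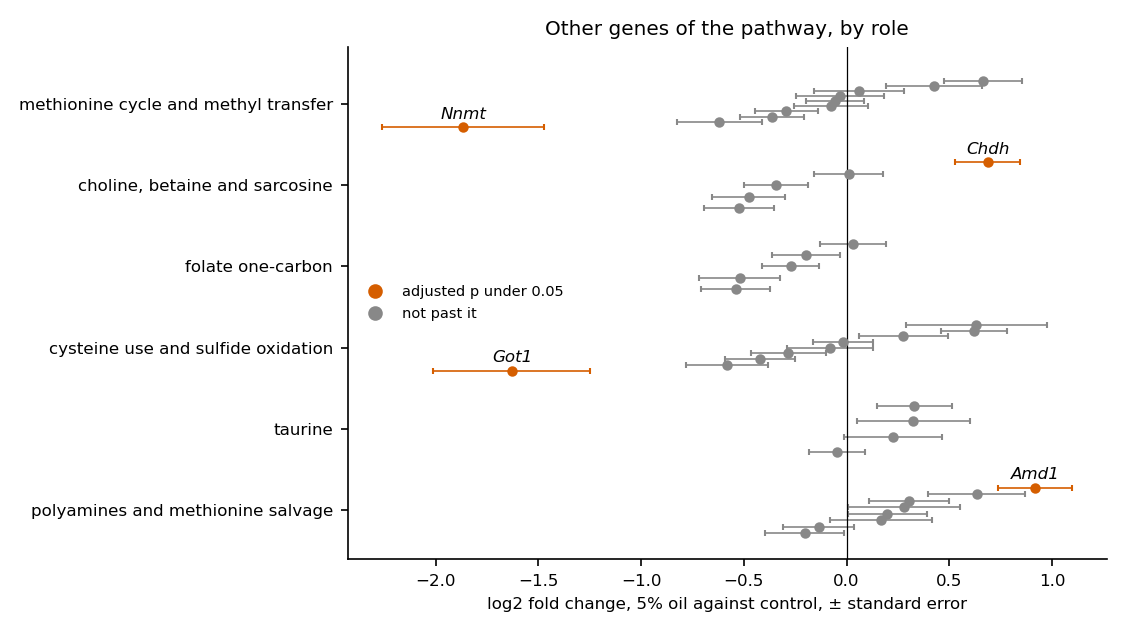
Log2 fold change at 5% oil against control, with its standard error, for the 41 other genes of the pathways, grouped by role. Coloured points, with an edgeR adjusted p under 0.05, are Nnmt at -1.87, Got1 at -1.63, Chdh at 0.69 and Amd1 at 0.92.

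Among 10495 genes, those whose standardised log2 CPM over the 12 libraries lay nearest to Bhmt were Agxt2 (root mean square difference 0.288), Inhbc (0.306) and Ube2u (0.313). Nearest to Csad were Slc35d1 (0.402), Sort1 (0.429) and Tmpo (0.461). Within the 9, the closest pair was Bhmt and Cth at 0.531. All points share their libraries, so these distances are descriptions.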

How the data were processed

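The values are those the authors deposited; reads were not used here. The deposited gene and transcript tables hold estimated counts, not normalized, 11.7% of the gene values not being whole; per the submitters' processing notes kallisto, edgeR, limma and the build GRCm39 were involved, with no version or role stated. The deposited CPM table, whose unit is CPM per the file headers and which covers 11339 genes, was used in 1 alternative. The deposited comparison table gives a log2 fold change and a p-value per gene; its 12 columns per library were not used. Whether counting used the strand is not given in the sources used here. The series text names 6 livers per diet, and 12 libraries were analysed.

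Estimated counts were rounded and tested in R 4.3.3 with edgeR 4.0.16, using filterByExpr with the 6 diet-by-sex groups, TMM factors, a robust quasi-likelihood fit of diet plus sex over all 12 libraries, and Benjamini-Hochberg adjustment over 13814 genes with a threshold of 0.05. The common biological coefficient of variation was 0.266. CPM in the text are scaled by TMM factors. Standard errors were derived from each fold change (log2) and its F statistic. The fit was tested on simulated data. Standard errors hold both the spread between animals and counting error. Of the gene IDs, 48845 matched a symbol. Transcript types, lengths and sequences came from GENCODE M21 (GRCm38) by ID, for 138096 of 141450 transcripts, and TPM were computed from them; promoter windows came from RefSeq (GRCm38.p6). All 9 genes are named whatever their result; of the other pathway genes, those called in a diet comparison and otherwise at most 2 per role by smallest p; and the 3 genes nearest to each called member whose mean log2 CPM reached 1. Members and lists were chosen with earlier results of these data known. Alternatives were RLE and upper quartile factors, other filters, DESeq2 1.42.0, limma 3.58.1 (voom, and trend on log2 of CPM plus 0.5), sums of transcripts, no sex term and each library left out; 4 more were added after seeing the data, namely protein-coding transcripts alone, retained-intron share or clock score as a covariate, and leaving out the 4 libraries with over 4% retained-intron reads.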

Additional observations from a re-analysis of the deposited data

Results flagged for a closer look

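Mat1a in female N988 at 5% oil, at 1640 CPM, lay far below the other 3 livers of its diet: on the log2 scale its gap to the next value was 0.841 of the whole range of the 4, against a critical value of 0.829. In CPM the same gap was 0.796 of the range, short of that value, so the flag rests on the log scale. Of 27 sets of 4 livers tested (9 genes on 3 diets) it was the only one past the value on the log2 scale; in CPM the only one was Mat1a in female N984 at 1%, at 4150 CPM, with 0.851 (0.81 on the log2 scale). Chance flags about 1 set in 20. Library N988 was the lowest of all 12 for 7 of the 9 genes, with no share of all genes computed beside this, and its share of retained-intron reads was 4.88%.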

How the results depend on the processing

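At 5% against control, edgeR called 2 of the 9 genes, and so it did without each library in turn (range 2 to 2); without the sex term 1 was called, Csad, and with the clock score 0 (3 at an unadjusted p under 0.05). For the dose slope the 2 calls became 3 with DESeq2, 1 without the sex term and 0 with the clock score (4 unadjusted), with 2 to 2 when a library was left out. At 1% against control, where 0 were called, testing all genes with any read gave 1 call, Csad. Between the doses the 2 calls became 1 with upper quartile factors, coding transcripts, the retained-intron covariate or the clock score, and 0 with no sex term (3 unadjusted) or without the 4 libraries of high retained-intron share (4 unadjusted), and ranged from 0 to 2 over single libraries left out. Between the sexes the 2 calls became 1 with upper quartile factors, limma trend on CPM, coding transcripts or the clock score, and 0 with the retained-intron covariate (2 unadjusted) or without those 4 libraries (3 unadjusted), with 0 to 2 over single libraries. The cause was not tested, and the last setting also had fewer samples, those left out all being female. No call of the 9 was made for the sex difference in response under any of the alternatives run; it could not be fitted without the sex term, and without the 4 libraries it rests on 1 female at 5% and 1 on the control diet. Over the 3 diet comparisons of the 9 genes, signs turned only for values not called: at 5% against control Mat1a gave 0.0103 with limma trend, 0.0611 with the clock score, 0.0244 without the 4 libraries and -0.18 to 0.10 over single libraries; Gnmt gave 0.0628 without the 4 libraries and -0.51 to 0.07 over single libraries; Ahcy gave 0.0386 with limma trend, 0.10 without the 4 libraries and -0.20 to 0.0439 over single libraries. At 1% against control, without the 4 libraries Mat1a gave -0.17, Gnmt 0.0038, Cbs 0.19 and Cth 0.37. Over single libraries Mat1a ran from -0.18 to 0.11, Cth from -0.24 to 0.12 and Cdo1 from -0.12 to 0.0965. Cth also gave 0.0171 with upper quartile factors, 0.0095 with the stricter filter, 0.0331 with limma trend, 0.0269 with no sex term and 0.0184 with the retained-intron covariate; Cdo1 gave 0.027 with upper quartile factors, 0.007 with no filter, 0.0194 with the stricter one, 0.0677 with limma trend, 0.0519 on coding transcripts and 0.0574 with the clock score. Between 5% and 1%, Mat1a gave 0.20 without the 4 libraries and -0.22 to 0.0845 over single libraries, and Cbs 0.0558 on coding transcripts. Cbs was called by DESeq2 alone at 5% against control (adjusted p = 0.0249) and for the slope (0.0196). The number of all genes called at 5% against control was 340 and ran from 138 to 479 over single libraries and from 0 to 1011 over the other alternatives, the 0 being edgeR's with the clock score (1138 at an unadjusted p under 0.05). At 1% it was 31 (13 to 184, and 1 to 649), between the doses 184 (13 to 597, and 8 to 1276), for the slope 308 (80 to 424, and 3 to 1108), between the sexes 1235 (594 to 2356, and 156 to 2375), and for the sex difference in response 0 (0 to 2, and 0 to 229). No paired analysis was possible because the replicate names are animal numbers that no groups share. With 4 animals a diet the standard errors set what can be seen, and a missed threshold does not show equal levels.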
